A study of Mus musculus with 4 samples.

Results

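The genes described here encode β-catenin and its main nuclear partners on DNA: Ctnnb1 (β-catenin), the 4 Tcf/Lef factors (Tcf7, Lef1, Tcf7l1 and Tcf7l2), the Groucho co-repressors Tle1, Tle2, Tle3 and Tle4, and Aes, the short Groucho relative. They were chosen by gene symbol, as 10 of the 23361 genes in the deposited table, and all 10 were found and passed the filter on low values. Expression was measured by RNA sequencing in 2 libraries of Nfatc1+ cells and 2 libraries of Shh+ cells, both from hair pegs, the downgrowing stage of the developing hair follicle (HF), of mouse back skin at E17.5. All embryos carried Rosa-stop-tdTomato, a red reporter that needs Cre, and K14-H2BGFP, a nuclear green label driven by the keratin 14 promoter of epithelial cells. They differed in the CreER, a recombinase switched on by tamoxifen, which was Nfatc1-CreER or Shh-CreER. Tamoxifen was given once at E15.5, so tdTomato marked cells that had used the Nfatc1 or the Shh promoter since then and their progeny, and cells with both colors were sorted.

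The populations also differed in how the skin was taken apart. Nfatc1+ cells came from whole back skin in 0.25% trypsin for 16 min, and Shh+ cells came from dermis with hair pegs, left after dispase (0.4 mg/ml for 1 h) and removal of the epidermis, in trypsin for 10 min. Population and digestion cannot be told apart in any comparison below. Shh stood at 10.5 and 11.7 FPKM (sequenced fragments for each kilobase of a transcript, relative to the fragments mapped in the library) in the Nfatc1+ libraries and at 143.9 and 144.7 FPKM in the Shh+ libraries, and Nfatc1 at 112.3 and 116.1 against 25.3 and 20.1 FPKM, so both genes followed the labels. Immediate early genes, which tissue digestion can induce, moved with the population. By the rule given below, 16 of 18 were higher in Nfatc1+ cells, where 18.9% of all tested genes were. Their summed levels were 3411 and 3896 FPKM in Nfatc1+ cells, against 1640 and 1750 FPKM in Shh+ cells. The part of digestion in the differences below was not tested. Relative depth, with Nfatc1+ replicate 1 set to 1, ranged from 0.574 in Shh+ replicate 2 to 0.927 in the other two libraries. Nothing in the labels says whether the libraries of a population came from separate animals, so p-values reflect only how far these libraries spread, which may be a technical matter.

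β-catenin has 2 pools in an epithelial cell. At adherens junctions it links cadherins to α-catenin and the actin cytoskeleton, and in the nucleus, when Wnt ligands have stopped its breakdown, it binds Tcf/Lef factors on DNA and turns their targets on. Without β-catenin the same Tcf/Lef factors hold Groucho proteins, which recruit histone deacetylases and keep the targets off. Lef1 and Tcf7 are best known as activators in response to Wnt, Tcf7l1 mainly as a repressor, and Tcf7l2 acts in both ways depending on the tissue. In skin, Lef1 is known from the HF placode, matrix and hair shaft precursors, and Tcf7l1 from the bulge stem cells and the outer root sheath.

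Ctnnb1, Lef1, Tcf7 and Tle4 were higher in Shh+ cells, and Tcf7l1, Tcf7l2, Tle1 and Tle2 were higher in Nfatc1+ cells. Tle3 and Aes, the most abundant of the Groucho genes, were not called. Lef1 had by far the widest difference of the 10, 10.5-fold between means, followed by Tle2 (4.84-fold, in the opposite direction) and Ctnnb1 (2.54-fold). A gene was called at a Benjamini-Hochberg adjusted p under 0.05 in limma on log2(FPKM + 0.5), fitted over the 12750 genes whose mean reached 0.5 FPKM. By that rule 4 of the 10 were higher in Shh+ cells, where 18.1% of all tested genes were, and 4 of the 10 were higher in Nfatc1+ cells, where 18.9% of all tested genes were. Together 8 of 10 were called, against 37% of all tested genes. The libraries of the populations did not overlap for 9 of 10, against 70.7% of all tested genes. With the form of threshold that the study used, an unadjusted p under 0.01 and a difference of at least 2-fold, Ctnnb1 and Lef1 were higher in Shh+ cells (2 of 10, against 4.71% of all tested genes) and Tle2 was higher in Nfatc1+ cells (1 of 10, against 5.76%). The median log2 fold change of the 10, Shh+ minus Nfatc1+, was 0.05, and the median of its absolute value was 0.72, against 0.24 over all tested genes. In bulk RNA, a lower level from fewer expressing cells and one from less RNA per cell cannot be told apart.

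**Figure D1:**
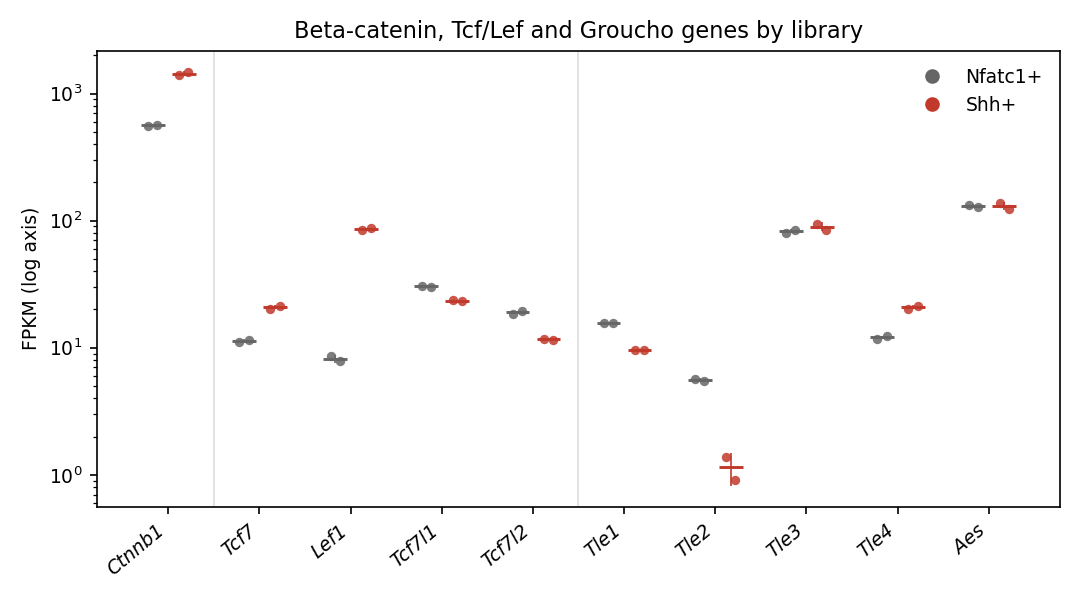
FPKM of the 10 genes in each library on a log axis (points; horizontal line, mean; vertical line, SD; n = 2 libraries per population). Lef1 runs from 7.80 to 8.55 FPKM in Nfatc1+ cells and from 84.5 to 87.6 FPKM in Shh+ cells, Tle2 lies on the opposite side, and Tle3 and Aes sit at nearly the same level in both.

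To show the promoters of the 3 genes that passed 2-fold, the 250 bases before the most upstream start that RefSeq lists for the gene (GRCm38.p6) are given 5′ to 3′ on the strand of the gene, with CpG dinucleotides in capitals. The windows are chr9:120933150-120933399 on the plus strand for Ctnnb1, chr3:131110047-131110296 on the plus strand for Lef1 and chr10:81575037-81575286 on the plus strand for Tle2. Those of Ctnnb1 and Tle2 lie inside the gene spans given below, which come from GENCODE M21, another annotation with starts further upstream.
Ctnnb1: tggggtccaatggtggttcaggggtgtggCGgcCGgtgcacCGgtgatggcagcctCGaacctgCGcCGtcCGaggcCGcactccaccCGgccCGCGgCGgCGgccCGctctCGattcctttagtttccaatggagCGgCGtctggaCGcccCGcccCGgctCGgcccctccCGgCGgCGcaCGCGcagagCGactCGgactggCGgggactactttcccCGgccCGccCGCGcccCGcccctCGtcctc
Lef1: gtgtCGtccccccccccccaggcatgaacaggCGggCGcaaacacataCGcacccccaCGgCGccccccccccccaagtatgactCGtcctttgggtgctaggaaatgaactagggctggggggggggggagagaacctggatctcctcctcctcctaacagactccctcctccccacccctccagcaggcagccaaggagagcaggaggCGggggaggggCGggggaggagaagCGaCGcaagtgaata
Tle2: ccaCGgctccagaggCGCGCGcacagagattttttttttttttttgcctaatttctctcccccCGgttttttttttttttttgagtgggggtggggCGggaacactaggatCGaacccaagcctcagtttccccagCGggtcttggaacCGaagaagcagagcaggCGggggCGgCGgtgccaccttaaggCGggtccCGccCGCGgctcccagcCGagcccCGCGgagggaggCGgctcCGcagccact
CpG is frequent in the Ctnnb1 window (35 dinucleotides), less so at Tle2 (21) and least at Lef1 (11). Of the 10 genes 9 matched the promoter table. The Tcf7 window may be partly coding sequence, since a start codon in it opens a reading frame with no stop before its end. All 9 windows held more CpG than the median of 6 over 27025 promoters of the same length, with a median of 29 and a GC content of 72.8% at the median, against 52.0% over all promoters. The letters CTTTGA, a core of the sequence that Tcf/Lef factors bind, were searched on both strands. They were in 0 of the 9 windows and in 14.1% of all promoters, which says only that these letters are not in these windows.

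Ctnnb1 (chromosome 9, 120929216 to 120960507, plus strand, GRCm38) stood at 560.5 and 571.0 FPKM in the Nfatc1+ libraries and at 1399.8 and 1477 FPKM in the Shh+ libraries. Both Shh+ libraries lay far above both Nfatc1+ libraries, and replicates differed little. The log2 fold change was 1.35 (SE 0.06, 95% interval 1.20 to 1.49, limma adjusted p = 1.34e-05). Ctnnb1 was among the most abundant transcripts of both populations, ranking 110 among the tested genes in Nfatc1+ cells and 43 in Shh+ cells. Its exons share 759 bases with exons of Ulk4 on the opposite strand in GENCODE M21, and the strand setting of the counting is not given in the sources used here. Ulk4 was listed at 1.83 to 2.04 FPKM in all 4 libraries.

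Of the 5 tested partners of β-catenin at the junction, Cdh3 was higher in Shh+ cells, Ctnna1 and Cdh1 were lower there. Jup and Ctnnd1 were not called. The called genes are 60% of the 5, against 37% of all tested genes. Jup encodes plakoglobin, the paralog of β-catenin in desmosomes and adherens junctions. It stood at 131.6 and 134.7 FPKM in Nfatc1+ cells and at 133.0 and 121.6 FPKM in Shh+ cells, with overlapping libraries and no call (log2 fold change −0.07, limma adjusted p = 0.464). The ratio of Jup to Ctnnb1 was 0.235 and 0.236 in Nfatc1+ cells and 0.0950 and 0.0823 in Shh+ cells. This ratio separated the populations, with p = 0.333 in an exact two-sided permutation test, the smallest p that 2 libraries against 2 can give, so no ratio or share here can pass 0.05. Ctnna1 (α-catenin), which ties β-catenin to actin, was at 132.2 and 132.0 FPKM in Nfatc1+ cells and at 105.3 and 104.8 FPKM in Shh+ cells, and it was called higher in Nfatc1+ cells (log2 fold change −0.33, limma adjusted p = 0.00343). Ctnnd1 (p120-catenin), which stabilizes cadherins at the membrane, had a mean of 88.1 ± 0.579 FPKM in Nfatc1+ cells against 87.4 ± 3.22 FPKM (SD, n = 2) and was not called (limma adjusted p = 0.898).

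The cadherin genes changed in opposite directions. Cdh1 (E-cadherin) was at 234.0 and 224.7 FPKM in Nfatc1+ cells and at 117.4 and 123.4 FPKM in Shh+ cells, a log2 fold change of −0.93 (SE 0.06, limma adjusted p = 4.78e-05). Cdh3 (P-cadherin), the cadherin known from HF placodes and the hair matrix, was at 137.6 and 144.7 FPKM in Nfatc1+ cells and at 231.1 and 238.8 FPKM in Shh+ cells, a log2 fold change of 0.73 (SE 0.06, limma adjusted p = 1.27e-04). Cdh1 was the more abundant cadherin in both Nfatc1+ libraries and Cdh3 in both Shh+ libraries. Their sum moved little, from 371.6 and 369.4 FPKM to 348.5 and 362.2 FPKM. Ctnnb1 was 1.51 and 1.55 times that sum in Nfatc1+ cells and 4.02 and 4.08 times that sum in Shh+ cells. The sum, this ratio and the ratios and sums in the following paragraphs, other than the shares of Lef1, Tcf7l1 and Tle2 and the ratio of Aes to the Tle genes, were chosen after the values had been seen. Cdh2 (N-cadherin) was below the filter.

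**Figure D2:**
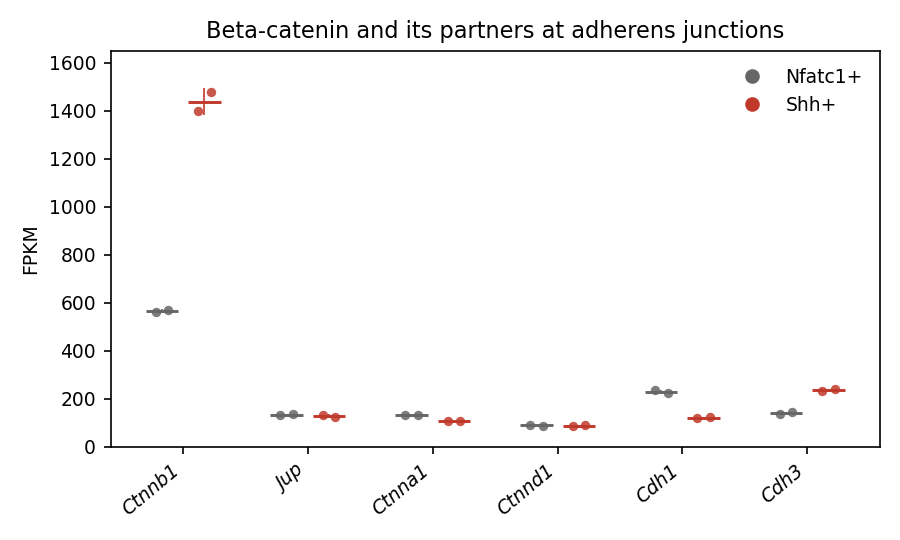
FPKM of Ctnnb1 and of genes whose proteins share the adherens junction with it, by library (points; horizontal line, mean; vertical line, SD; n = 2 libraries per population; linear axis from 0). Ctnnb1 goes from 566 to 1438 FPKM between the means, Jup and Ctnnd1 are not called, and Cdh1 and Cdh3 exchange ranks.

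The Tcf/Lef genes differed in direction by member, with the activators Lef1 and Tcf7 higher in Shh+ cells and Tcf7l1 and Tcf7l2 higher in Nfatc1+ cells. Lef1 (chromosome 3, 131110471 to 131224356, plus strand), with the CpG-poorest of the printed promoters, stood at 8.55 and 7.80 FPKM in Nfatc1+ cells and at 84.5 and 87.6 FPKM in Shh+ cells. The lower Shh+ library was nearly 10 times the higher Nfatc1+ library. The log2 fold change was 3.32 (SE 0.08, 95% interval 3.14 to 3.50, limma adjusted p = 2.57e-06), which ranked 39 from the top among the tested genes. The study had already reported Lef1 as higher in Shh+ cells, with real-time PCR, so this direction is not new. Lef1 shares 1208 exonic bases with the antisense gene Gm43352, whose reads cannot be told apart without strand. Tcf7 (chromosome 11, 52252371 to 52283014, minus strand), the other activator, was at 11.1 and 11.5 FPKM in Nfatc1+ cells and at 20.3 and 21.3 FPKM in Shh+ cells, a log2 fold change of 0.85 (SE 0.08, limma adjusted p = 2.70e-04).

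Tcf7l1 (chromosome 6, 72626378 to 72789254, minus strand), the repressor of the family, was at 30.5 and 30.3 FPKM in Nfatc1+ cells and at 23.8 and 23.2 FPKM in Shh+ cells. The libraries did not overlap, but the difference was the smallest of the 8 called (log2 fold change −0.37, SE 0.07, limma adjusted p = 0.00546). Tcf7l2 (chromosome 19, 55741820 to 55933654, plus strand) was at 18.6 and 19.4 FPKM in Nfatc1+ cells and at 11.8 and 11.5 FPKM in Shh+ cells, a log2 fold change of −0.68 (SE 0.08, limma adjusted p = 7.32e-04). Several Tcf/Lef genes are known to give transcripts that lack the part binding β-catenin or differ in later exons, and GENCODE M21 lists 2 protein-coding transcripts of Tcf7, 4 of Lef1, 3 of Tcf7l1 and 12 of Tcf7l2. The deposited values are per gene and carry no isoforms.

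FPKM is per length, so levels of the 4 genes were set against each other. The orders, shares and ratios between genes assume the right length for each gene, and the annotation used is not given. They are of RNA and do not report protein. In Nfatc1+ cells the order was Tcf7l1, Tcf7l2, Tcf7 and Lef1, and in Shh+ cells it was Lef1, Tcf7l1, Tcf7 and Tcf7l2, with no overlap between neighbours in either order. Lef1 went from the lowest to the highest of the 4. It made up 12.5% and 11.3% of the summed Tcf/Lef FPKM in Nfatc1+ cells and 60.2% and 61.0% in Shh+ cells. Tcf7l1 made up 44.4% and 43.9% in Nfatc1+ cells and 17.0% and 16.1% in Shh+ cells, although its own level differed by only 1.30-fold between means. Lef1 and Tcf7 together took 28.3% ± 0.387 of the sum in Nfatc1+ cells and 75.3% ± 0.852 in Shh+ cells (SD, n = 2). The share of Tcf7 alone was 16.4% ± 0.427 and 14.7% ± 0.259 (SD, n = 2), so Lef1 accounted for the larger joint share. Each of these shares separated the populations (exact two-sided permutation p = 0.333, the smallest possible).

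The sum itself was 68.7 and 69.0 FPKM in Nfatc1+ cells and 140.4 and 143.5 FPKM in Shh+ cells, 2.06-fold higher. Ctnnb1 was 8.17 and 8.28 times the Tcf/Lef sum in Nfatc1+ cells and 9.97 and 10.3 times in Shh+ cells. Without Lef1 the sum was 60.1 and 61.2 FPKM in Nfatc1+ cells and 55.9 and 56.0 FPKM in Shh+ cells, so the higher sum rested on Lef1.

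**Figure D3:**
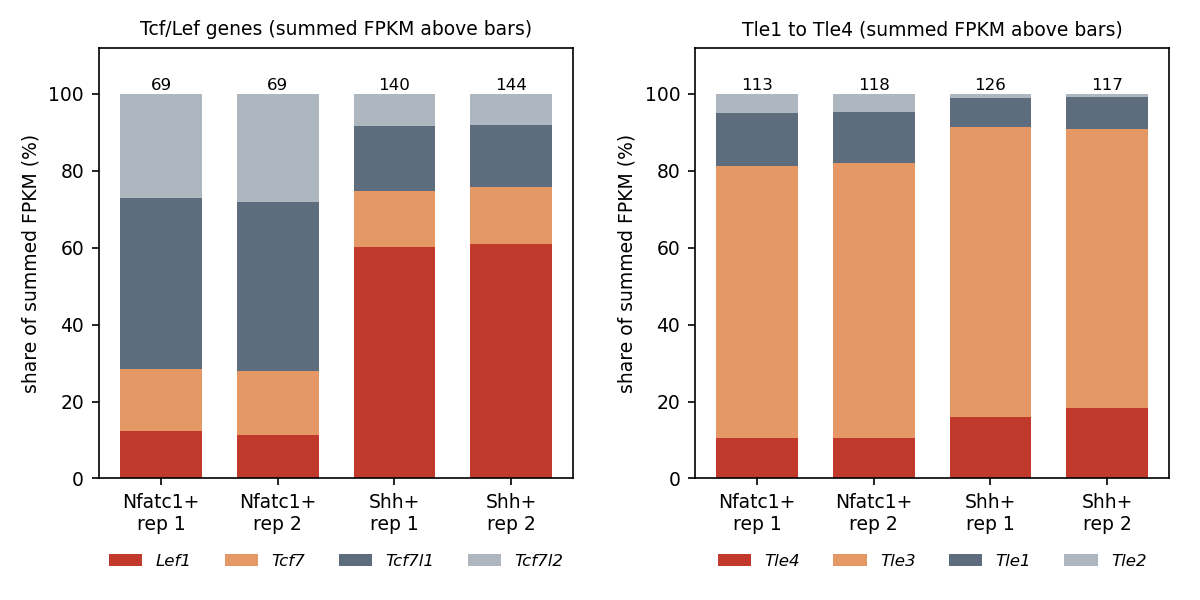
Share of each gene (%) in the summed FPKM of the Tcf/Lef genes (left) and of Tle1 to Tle4 (right), by library, with the summed FPKM above each bar. The Lef1 segment grows from 12.5% and 11.3% in Nfatc1+ cells to 60.2% and 61.0% in Shh+ cells, while Tle3 takes 70.9% to 75.2% of the Tle sum in all 4 libraries.

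The Groucho genes also divided by member, around a Tle3 level that differed little. Tle3 (chromosome 9, 61372366 to 61418497, plus strand), a full-length co-repressor and the most abundant of the Tle genes, was at 80.4 and 84.6 FPKM in Nfatc1+ cells and at 94.8 and 84.6 FPKM in Shh+ cells. The nearest libraries of the populations were almost equal, and Tle3 was not called (log2 fold change 0.12, 95% interval −0.05 to 0.29, limma adjusted p = 0.246). Tle4 (chromosome 19, 14448150 to 14598051, minus strand) was at 11.8 and 12.3 FPKM in Nfatc1+ cells and at 20.3 and 21.5 FPKM in Shh+ cells, a log2 fold change of 0.77 (SE 0.08, limma adjusted p = 4.39e-04). Tle1 (chromosome 4, 72117142 to 72200919, minus strand) was at 15.53 and 15.60 FPKM in Nfatc1+ cells and at 9.59 FPKM in both Shh+ libraries, a log2 fold change of −0.67 (SE 0.08, limma adjusted p = 9.09e-04). Tle1 was above Tle4 in both Nfatc1+ libraries and below it in both Shh+ libraries. The ratio of Tle4 to Tle1 was 0.761 and 0.787 in Nfatc1+ cells and 2.12 and 2.24 in Shh+ cells (exact two-sided permutation p = 0.333, the smallest possible).

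Tle2 (chromosome 10, 81574561 to 81590845, plus strand) had the widest difference of the Groucho genes. It was at 5.71 and 5.44 FPKM in Nfatc1+ cells and at 1.39 and 0.916 FPKM in Shh+ cells. Both Shh+ libraries were low, and the lower was the one of least depth. The log2 fold change was −1.89 (SE 0.18, 95% interval −2.32 to −1.46, limma adjusted p = 2.97e-04), and without that library it was still called. Tle2 took 5.03% and 4.62% of the summed Tle1 to Tle4 FPKM in Nfatc1+ cells and 1.10% and 0.786% in Shh+ cells. The sum was 113.4 and 117.9 FPKM in Nfatc1+ cells and 126.0 and 116.6 FPKM in Shh+ cells, which overlapped (exact two-sided permutation p = 0.667). Set against this sum, the Tcf/Lef sum was 0.605 and 0.585 of it in Nfatc1+ cells and 1.11 and 1.23 of it in Shh+ cells.

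Aes (chromosome 10, 81559488 to 81566362, plus strand) encodes a short protein with the part through which Groucho proteins pair but without their WD repeats, and is known to counter the full-length members. It was at 133.3 and 129.2 FPKM in Nfatc1+ cells and at 136.8 and 123.5 FPKM in Shh+ cells. The libraries overlapped and no difference was called (log2 fold change −0.01, 95% interval −0.17 to 0.15, limma adjusted p = 0.899). The ratio of Aes to the summed Tle1 to Tle4 was 1.18 and 1.10 in Nfatc1+ cells and 1.09 and 1.06 in Shh+ cells. Aes and Tle2 are neighbours in the genome, on the same strand and 8198 bases apart, and only Tle2 was called. Next to Tle2 on its other side lies Tle6, a Groucho relative on the opposite strand, 58 bases away in GENCODE M21 and overlapping it by 1678 bases in RefSeq. Tle6 was at 0.974 and 0.901 FPKM in Nfatc1+ cells and at 0.5003 and 0.2419 FPKM in Shh+ cells, with no call (log2 fold change −0.74, limma adjusted p = 0.0568). Its mean reached the filter only through the Nfatc1+ libraries. Reads of Tle2 and Tle6 in bases they share cannot be told apart without strand. The same holds for 179 exonic bases of Tcf7l1, 247 of Tle1 and 98 of Tle2 that GENCODE M21 also gives to antisense genes.

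Across all 10 genes, Ctnnb1, Aes and Tle3 led the order of levels in Nfatc1+ cells, followed by Tcf7l1, Tcf7l2, Tle1, Tle4, Tcf7, Lef1 and Tle2. No neighbours in that order overlapped, though Tle4 (11.8 to 12.3 FPKM) and Tcf7 (11.1 to 11.5 FPKM) lay close. In Shh+ cells Ctnnb1 and Aes again came first, and Lef1 (84.5 to 87.6 FPKM) overlapped Tle3 (84.6 to 94.8 FPKM). Tle4 and Tcf7 overlapped there too, below Tcf7l1 and above Tcf7l2, Tle1 and Tle2.

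Other genes of the nuclear complex were taken from a list of 26 co-activators, co-repressors, chromatin factors and regulators, all of them tested. Of these, 8 were called higher in Shh+ cells, 3 were called lower there and 15 passed no threshold, with a median log2 fold change of 0.07 against 0.00 over all tested genes. The 11 called are 42.3% of the list, close to the 37% of all tested genes. The number higher in Shh+ cells dropped when any 1 library was left out. It dropped over all tested genes too, though in smaller proportion. Tnik, a kinase known to bind Tcf7l2 and β-catenin in intestinal cells, had the widest difference. It was at 3.42 and 3.84 FPKM in Nfatc1+ cells and at 17.7 and 16.8 FPKM in Shh+ cells, a log2 fold change of 2.11 (SE 0.10, limma adjusted p = 1.79e-05). Bcl9 and Bcl9l, paralogs that bridge β-catenin to the Pygo co-activators, were called in opposite directions. Bcl9 was at 21.0 and 22.8 FPKM in Nfatc1+ cells and at 29.7 and 30.3 FPKM in Shh+ cells, a log2 fold change of 0.45 (limma adjusted p = 0.00353). Bcl9l was at 47.7 and 50.7 FPKM in Nfatc1+ cells and at 29.6 and 26.1 FPKM in Shh+ cells, a log2 fold change of −0.81 (limma adjusted p = 3.87e-04). Bcl9l was thus above Bcl9 in both Nfatc1+ libraries and no longer above it in either Shh+ library.

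Sox9, an HF stem cell factor that in cartilage is known to promote the loss of β-catenin, was at 92.0 and 96.8 FPKM in Nfatc1+ cells and at 37.8 and 31.7 FPKM in Shh+ cells, a log2 fold change of −1.44 (limma adjusted p = 4.77e-05). For HFs the study proposes the reverse order, with Wnt/β-catenin signaling suppressing Sox9, from staining and β-catenin mutants. It had already found Sox9 absent from Wnt-responsive HF cells, so this direction is not new. Neither order was tested here. Parp1, an enzyme found with Tcf7l2 in human colon cancer cells, was at 64.7 ± 1.42 FPKM and 97.2 ± 3.49 FPKM (SD, n = 2; a log2 fold change of 0.58, limma adjusted p = 4.10e-04). The co-repressor gene Ctbp2 was higher in Nfatc1+ cells (log2 fold change −0.36, limma adjusted p = 0.00801). Its paralog Ctbp1 and the histone deacetylase genes Hdac1 and Hdac2, which serve Groucho repression, were not called. Nlk, a kinase that phosphorylates Tcf/Lef factors, had a log2 fold change of 0.45 (limma adjusted p = 0.0191), and its call was lost when Nfatc1+ replicate 2 (adjusted p = 0.110) or Shh+ replicate 2 (adjusted p = 0.0847) was left out.

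**Figure D4:**
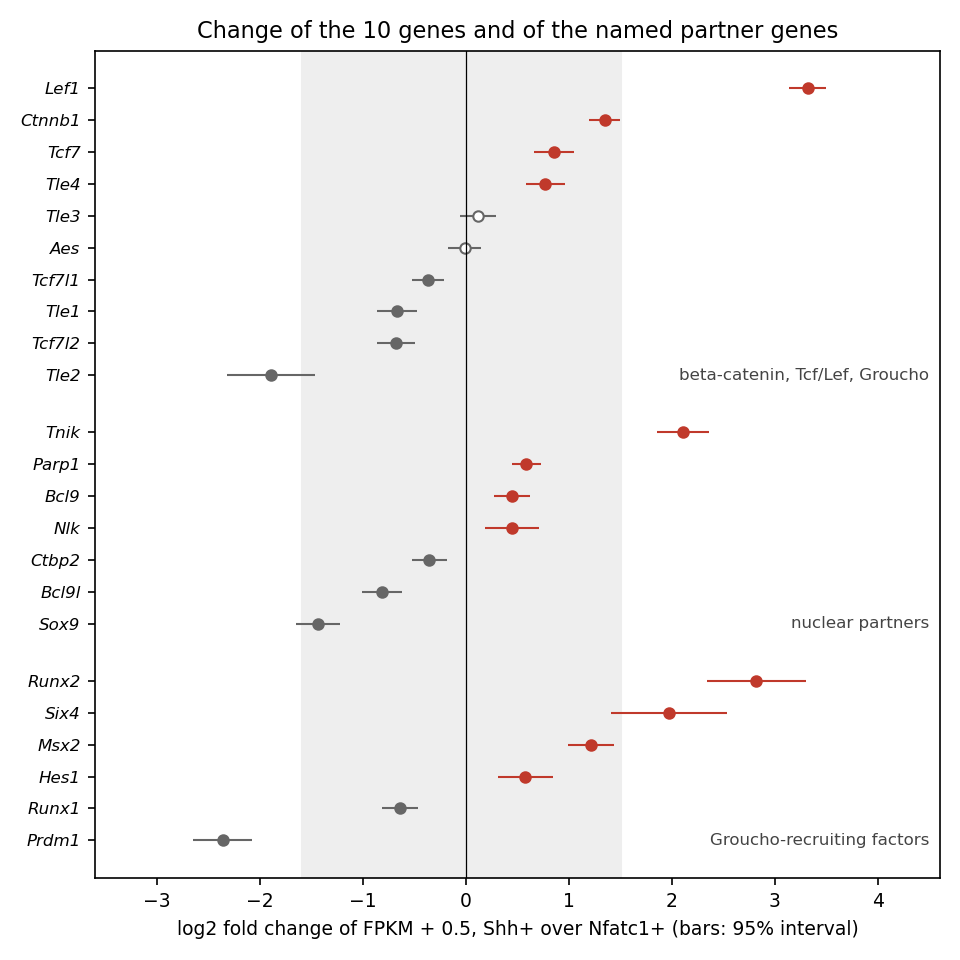
Difference in log2(FPKM + 0.5), Shh+ minus Nfatc1+, of the 10 genes and of the named nuclear partners and Groucho-recruiting factors, with 95% limma intervals (red, higher in Shh+ cells; grey, higher in Nfatc1+ cells; open, not called). The shaded band holds the middle 95% of all tested genes, and Lef1 (3.32) and Tle2 (−1.89) are the only ones of the 10 whose estimates lie outside it.

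Groucho proteins are also brought to DNA by factors other than Tcf/Lef, and 19 of these were listed. Only 8 passed the filter, of which 4 were called higher in Shh+ cells, 2 were called lower there and Hes6 and Mycn were not called. The shares of all tested genes called in these directions were 18.1% and 18.9%, but Six4 passed the filter only through the Shh+ libraries. Runx2 and Runx1, Runt factors that recruit Groucho through their last residues, were called in opposite directions. Runx2, the regulator of bone formation, was at 0.626 and 0.531 FPKM in Nfatc1+ cells and at 5.90 and 8.55 FPKM in Shh+ cells, a log2 fold change of 2.82 (limma adjusted p = 8.21e-05). Runx1, which is known in HF stem cells, was at 56.5 and 54.8 FPKM in Nfatc1+ cells and at 37.3 and 33.6 FPKM in Shh+ cells, a log2 fold change of −0.64 (limma adjusted p = 6.46e-04). Runx1 remained the more abundant Runx gene in every library. Prdm1 (Blimp1), a transcriptional repressor known in sebaceous and epidermal lineages, was at 34.9 and 39.0 FPKM in Nfatc1+ cells and at 7.61 and 6.03 FPKM in Shh+ cells, a log2 fold change of −2.36 (limma adjusted p = 1.94e-05). The homeobox gene Msx2, active in the hair matrix, was at 6.66 and 7.37 FPKM in Nfatc1+ cells and at 17.4 and 16.4 FPKM in Shh+ cells, a log2 fold change of 1.21 (limma adjusted p = 1.23e-04). Six4 (log2 fold change 1.97) and the Notch effector Hes1 (0.58) were also called higher in Shh+ cells.

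Genes known to be switched on by the β-catenin and Tcf/Lef complex and to feed back on the pathway gave a mixed picture. Of 8 listed, 5 were called higher in Shh+ cells, 2 were called lower there and 1 was not called, where 18.1% and 18.9% of all tested genes were called in these directions. Several were already singled out by the study in these libraries, so their direction is no independent evidence, and those named here were chosen after their values were seen. Axin2, a scaffold of the β-catenin destruction complex, was at 22.4 and 22.5 FPKM in Nfatc1+ cells and at 38.1 and 40.8 FPKM in Shh+ cells. Sp5, a Wnt-induced repressor, was at 1.38 and 1.05 FPKM in Nfatc1+ cells and at 15.9 and 14.8 FPKM in Shh+ cells. Lgr5, the R-spondin receptor of stem cells, went the other way, at 42.9 and 46.0 FPKM in Nfatc1+ cells and 3.38 and 3.88 FPKM in Shh+ cells. The limma adjusted p was 1.93e-04 for Axin2, 1.02e-05 for Sp5 and 3.03e-06 for Lgr5.

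Markers of cells other than the sorted epithelium were read beside these results, since several of the 10 genes are also expressed elsewhere. Epithelial markers were abundant in all libraries (Krt5 2415 to 4323 FPKM, Krt14 1030.0 to 1231.8 FPKM). Of 9, 7 were called higher in Nfatc1+ cells, where 18.9% of all tested genes were, and Krt17 and Epcam were not called. Epcam was at 156.6 and 146.4 FPKM in Nfatc1+ cells and at 167.2 and 168.8 FPKM in Shh+ cells. Sums over the 9 were 10275 and 10033 FPKM in Nfatc1+ cells against 6769 and 6576 FPKM. Dermal condensate cells, which lie under the hair peg and are also known for Lef1, had marker sums of 167.8 and 175.0 FPKM in Nfatc1+ cells and 150.3 and 146.6 FPKM in Shh+ cells. Of the 10, 5 were tested. Ptch1, which made up most of the sum, was higher in Shh+ cells (105.8 and 108.5 against 133.4 and 124.4 FPKM). Sox2, Cxcr4 and Hhip were higher in Nfatc1+ cells, and Sox18 was not called. Cxcr4 was at 52.58 and 54.75 FPKM against 12.6 and 18.7 FPKM, and Sox2 at 5.21 and 6.39 FPKM against 0.687 and 1.24 FPKM. Hhip was at 2.295 and 2.458 FPKM against 1.518 and 1.106 FPKM. The sums mostly report Ptch1 and do not show these differences. The called markers are 80% of the 5, against 37% of all tested genes. Fgf10, Foxd1 and Alx4 stayed below 0.350 FPKM in every library. The part of condensate RNA in the Lef1 difference was not tested. T cells are known for Lef1 and Tcf7, and of their markers Cd3e, Cd3d and Cd2 were at 0 in all 4 libraries. Cd3g was at 0.0997 and 0.215 FPKM in Nfatc1+ cells and at 0 in both Shh+ libraries. Ptprc was at 0.0514 and 0.0555 FPKM against 0.0370 and 0 FPKM. Cd5 was at 0.811 and 0.632 FPKM against 0.535 and 0.627 FPKM. Sums over the 7 measured markers were 5.99 to 7.19 FPKM, most of it Lck.

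Dermal fibroblast markers were present, with sums of 490.7 and 777.2 FPKM in Nfatc1+ cells and 782.6 and 873.3 FPKM in Shh+ cells. Of 10, Dcn and Fbln1 were higher in Shh+ cells, Col3a1 was lower there and the other 7 passed no threshold. The called markers are 30% of the list, below the 37% of all tested genes. Dcn alone went from 40.3 and 57.7 FPKM to 326.4 and 424.7 FPKM, while Col1a1 was at 77.9 and 164.6 FPKM against 71.6 and 52.7 FPKM. The part of fibroblast RNA in the differences of the 10 genes was not tested. Melanocyte marker sums ran at 32.2 and 67.1 FPKM in Nfatc1+ cells and at 8.20 and 46.1 FPKM in Shh+ cells. Of 10, Mitf was higher in Nfatc1+ cells (9.74 and 12.3 against 0.860 and 1.29 FPKM, limma adjusted p = 5.18e-05) and 9 passed no threshold. That is 10% of the list called, against 37% of all tested genes. The part of melanocyte RNA in the differences of the 10 genes was not tested. Other leukocyte markers summed to 6.98 to 12.6 FPKM and endothelial markers to 3.50 to 5.13 FPKM over the 4 libraries. Of the 5 tested leukocyte markers Aif1 alone was called, 20% against 37% of all tested genes. Aif1 was at 0.96 and 0.65 FPKM in Nfatc1+ cells and at 2.73 and 4.19 FPKM in Shh+ cells (limma adjusted p = 0.00235). The part of leukocyte RNA in the differences of the 10 genes was not tested. No endothelial marker was called.

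For Ctnnb1, Lef1 and Tle2, the genes with the most similar pattern were sought among the 7257 genes whose mean reached 10 FPKM, by the distance between log2(FPKM + 0.5) values centred on their mean over the 4 libraries. With 4 libraries, such likeness mostly reflects an equal difference between the populations. Closest to Ctnnb1 were Gadd45g (distance 0.0552), Zfp750 (0.0598) and Id3 (0.0703). Gadd45g, for example, was at 24.7 and 24.8 FPKM in Nfatc1+ cells and at 64.5 and 65.1 FPKM in Shh+ cells. Lef1 had no neighbour as near, with Cldn6 (distance 0.214), Slc40a1 (0.251) and Has3 (0.258) closest. Tle2 lay closest to Trpv4 (distance 0.0604), Rgma (0.141) and Ank (0.164).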

How the data were processed

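RNA from sorted Nfatc1+ and Shh+ cells (2 libraries each) was sequenced by the authors, who used TopHat (v2.0.13) for mapping to GRCm38/mm10 and Cufflinks (v2.2.1) for gene levels. HTSeq is also named in the submitters' processing notes, with no role given. The annotation and the strand setting are not given in the sources used here. The deposited values are FPKM per gene for 23361 genes, without counts, so absolute depth is unknown and only relative depth was read, from the ratio between libraries of values below 0.3 FPKM. Shh+ replicate 2, the shallowest, gives the least precise low values.

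Groups were taken from the sample titles. Log2(FPKM + 0.5) was compared with limma (3.58.1; R 4.3.3; eBayes with an intensity trend) over the 12750 genes whose mean reached 0.5 FPKM, and p-values were adjusted by Benjamini-Hochberg over all of them. On this scale the change of low genes is understated. Shares and ratios were compared by exact permutation tests. The limma step was tested on simulated data. Gene positions came from GENCODE M21 (GRCm38) and promoter windows from RefSeq (GRCm38.p6). The 10 genes and all gene lists were chosen with earlier results of these data known. Named from the partner lists were the called genes with a log2 fold change of at least 1 and up to 5 other called genes per list, by size, with Jup, Ctnna1 and the cadherins. Most similar genes were the 3 nearest to Ctnnb1 and to the members with the highest and lowest log2 fold change.

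Same-numbered replicates deviated together with a correlation of 0.11 over tested genes, with no statement in the labels that numbers mark shared animals, so they were not treated as pairs. Alternatives covered the pseudocount, the filter, scaling, the spread estimate, the call rule, a replicate block and each library left out.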

Additional observations from a re-analysis of the deposited data

How the results depend on the processing

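Ctnnb1, Lef1, Tcf7, Tcf7l1, Tcf7l2, Tle1, Tle2 and Tle4 kept their direction and an adjusted p under 0.05 in the fit above and under the 14 alternatives tried with that call rule, and Tle3 and Aes were called under none of them. The log2 fold change ranged from −2.21 to −1.62 for Tle2 and from −0.09 to 0.06 for Aes. With an unadjusted p under 0.01 and 2-fold as the rule, the 10 genes gave 2 higher in Shh+ cells and 1 lower. The 26 tested nuclear partners gave 1 higher and 1 lower, and the 8 tested Groucho-recruiting factors gave 3 higher and 1 lower. Over all tested genes, 4.71% passed this rule as higher and 5.76% as lower. The nuclear partners higher in Shh+ cells numbered 4 with no intensity trend and 4 to 5 with a library left out. With a replicate block, 4 of the 10 genes were called higher in Shh+ cells and 4 were called lower. Tle6 reached the filter only through the Nfatc1+ libraries, and its log2 fold change was −0.95 without Shh+ replicate 1. Tle6 was called with no filter (limma adjusted p = 0.0475), no trend (0.0313) or robust eBayes (0.0478). The cause was not tested. Values near 1 FPKM, such as Tle2 and Tle6 in Shh+ cells, are the ones that depth limits most.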
